A study of Caenorhabditis elegans with 2 samples.

Results

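Germline, meiosis and oocyte genes of Caenorhabditis elegans were examined for chromatin recovered with MEL-28, a nuclear pore and kinetochore protein, in whole young adults. The set held 40 genes, listed for their known roles, of 19973 nuclear protein-coding genes. Earlier results of these data were known when the genes were chosen. All 40 were found in the annotation. For each gene the strongest peak summit was taken in a 5′ window of 1500 bp, with 1000 bp before the annotated 5′ end and 500 bp after it. There was 1 group of 2 biological replicates. The animals were of strain OP646, which carries unc-119(tm4063) III and the transgene wgIs646, so that MEL-28 bears a C-terminal GFP-FLAG tag, and they were mixed in sex and collected 64 h after synchronisation by bleaching and starvation as L1 larvae. The immunoprecipitation was done with an antibody against GFP. Both replicates came from this 1 line and from whole animals, so signal from germ cells and from somatic cells cannot be told apart.

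The hermaphrodite gonad keeps a pool of mitotic stem cells at its distal end, where Notch signalling through GLP-1 and the PUF proteins FBF-1 and FBF-2 hold back meiosis. Cells that leave the niche pair and synapse their chromosomes, and most of those that develop in the adult become oocytes stocked with silent maternal mRNA. RNA-binding proteins such as GLD-1, OMA-1 and the PUF proteins control that mRNA, while P granules and Argonaute proteins survey germline transcripts at the nuclear pores. MEL-28 is the worm relative of ELYS, which helps to assemble those pores on chromatin.

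Stretches with and without a peak are shown first, read from the ce11 genome on the strand of the named gene. Those between a pair of genes are on the plus strand. Capitals mark TTTATA, the reverse complement of the TATA-like TATAAA, which alone among the 4 motifs searched had a match there. The nos-3 stretch (chrII:9746079-9746315) fills the gap to the divergent gene Y53C12B.1 and holds the pooled summit. The oma-1 stretch (chrIV:8888729-8888928) and the spn-4 stretch (chrV:6785189-6785388) are centred on the pooled summit. The last one lies between the 5′ ends of the divergent genes pgl-1 and him-3 (chrIV:6977319-6977507), where no list had a summit. It is the most AT-rich of the 4, with 20.6% GC, against 35.0% in that of nos-3, 31.5% in that of oma-1 and 38% in that of spn-4. Over the whole 5′ windows, pgl-1 and him-3 had the higher GC content, 38.4% and 38.6%. There nos-3 had 35.9%, oma-1 35.3% and spn-4 35.2%.
nos-3: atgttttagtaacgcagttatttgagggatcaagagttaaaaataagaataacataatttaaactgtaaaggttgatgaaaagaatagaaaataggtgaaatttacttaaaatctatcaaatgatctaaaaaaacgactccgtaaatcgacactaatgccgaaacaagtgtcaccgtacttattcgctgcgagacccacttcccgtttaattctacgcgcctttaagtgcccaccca
oma-1: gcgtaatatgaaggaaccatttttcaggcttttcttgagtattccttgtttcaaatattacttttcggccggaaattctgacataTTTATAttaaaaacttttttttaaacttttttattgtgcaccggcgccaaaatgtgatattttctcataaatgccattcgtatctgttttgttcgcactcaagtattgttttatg
spn-4: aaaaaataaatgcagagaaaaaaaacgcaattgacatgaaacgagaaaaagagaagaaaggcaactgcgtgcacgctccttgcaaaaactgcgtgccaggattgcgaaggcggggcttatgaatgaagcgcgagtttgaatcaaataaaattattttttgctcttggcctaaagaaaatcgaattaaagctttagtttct
pgl-1 and him-3: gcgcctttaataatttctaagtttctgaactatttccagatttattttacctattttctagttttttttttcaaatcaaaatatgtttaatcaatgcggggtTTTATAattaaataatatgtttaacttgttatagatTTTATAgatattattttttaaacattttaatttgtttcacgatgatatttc

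Several members carried a promoter sequence that the choice of genes did not use. TTCCCGC, a run of letters found in sites of E2F-type factors, occurred on either strand in 7 of 40 member promoters (17.5%, taken as 250 bp before to 50 bp after the 5′ end), against 643 of 19973 promoters (3.22%). The 7 were the PUF genes puf-5 and puf-11, spn-4, the eggshell gene cbd-1, the egg-surface genes egg-1 and egg-2, and the piRNA Argonaute gene prg-1. In 6 of the 7 the letters on the gene's strand were the reverse complement, GCGGGAA, alone, whereas this orientation alone made up 35.5% of all promoters with a match. Among 106 other germline genes, 7 had a match (6.60%): cpg-1, cpg-2, mex-1, msh-5, perm-2, puf-3 and syp-6. The 6 stretches below, on the gene's strand, carry the match in capitals. It starts 188 bp before the 5′ end in puf-11, 176 bp in cbd-1, 130 bp in spn-4, 124 bp in egg-2 and 122 bp in puf-5, and slightly nearer in egg-1. They come from chrII:8575389-8575455 (puf-5), chrIV:6421367-6421433 (puf-11), chrV:6784997-6785063 (spn-4), chrIV:11372785-11372851 (cbd-1), chrIII:5728035-5728101 (egg-1) and chrIII:7060671-7060737 (egg-2).
puf-5: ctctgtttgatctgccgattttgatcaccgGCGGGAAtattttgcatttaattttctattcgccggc
puf-11: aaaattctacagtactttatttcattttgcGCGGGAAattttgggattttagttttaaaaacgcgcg
spn-4: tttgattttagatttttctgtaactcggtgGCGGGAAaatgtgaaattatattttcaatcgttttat
cbd-1: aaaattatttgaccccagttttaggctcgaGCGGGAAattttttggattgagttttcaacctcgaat
egg-1: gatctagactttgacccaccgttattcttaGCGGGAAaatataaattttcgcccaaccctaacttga
egg-2: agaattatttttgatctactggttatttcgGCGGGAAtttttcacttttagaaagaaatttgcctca

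A pooled summit lay in the windows of 5 of these 7 genes and in those of 38.4% of all genes with a match. The match lay inside a pooled peak at 2 of the 7, puf-11 and cbd-1 (28.6%), against 126 of the 643 promoters (19.6%). At cbd-1 this was the weaker of its 2 pooled peaks, and the match also lay inside the strongest replicate 1 peak there. Within the 300 bp around the strongest pooled summit, the match was found for puf-11 alone among the 15 members with a summit (6.67%), against 4.02% of 4748 distinct summits at all genes. TATAAA was in 18 of 40 member promoters (45%, against 37.9% of all), GAGAGA in 4 (10%, against 21.8%) and GATAAG, a site of GATA factors, in 4 (10%, against 16.7%). Around the 15 member summits TATAAA was found 3 times (20%, against 29.4%), and GAGAGA and GATAAG in none (against 23.1% and 12.6%). A match is a run of letters and not evidence of binding.

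The peaks came as lists and not as reads, so depth is unknown and the signal is the depositors' own value per peak, with no stated scale. The pooled list, called on both replicates together, held 17005 nuclear peaks with signals from 29.3 to 412. Its depositors label it as peaks and background, and its −log10 q-values ran from 0.0177 to 2.05. A weak pooled peak may thus be background and not a MEL-28 site. The reproducible list held 369 nuclear peaks, the lowest with signal 92.7. The lists of replicate 1 and replicate 2 held 23774 and 19576 nuclear peaks, with median signals of 17.8 and 24.7. Their signal scales differ, so values are also given relative to the nuclear median of the same list. At least 99% of pooled and replicate peaks had 1 fixed width with the summit at the centre, so most summits mark the middle of a peak of 360 to 484 bp. The ego-1 peaks were among the exceptions, with widths of 276 bp in the pooled list and 121 bp in replicate 2. The genes mel-28 and unc-119 had 0 summits in their windows in every list.

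Most germline genes had weak peaks or none (a summit at a gene means one in its 5′ window unless the gene body is named). A reproducible summit lay in the window of 1 of 40 members (2.5%), ego-1, against 1.22% of all protein-coding genes. A pooled summit lay in the windows of 15 members (37.5%, against 28.2%), from 15 distinct peaks. Replicate 1 had a summit at 19 members (47.5%, against 37.1%) and replicate 2 at 17 (42.5%, against 30.5%). Both replicates had one at 13 members (32.5%, against 18.1%), exactly 1 of them had one at 10 (25%, against 31.4%), and 17 members had none in any list (42.5%, against 49% of all genes). The differences between these shares were not tested.

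**Figure D1:**
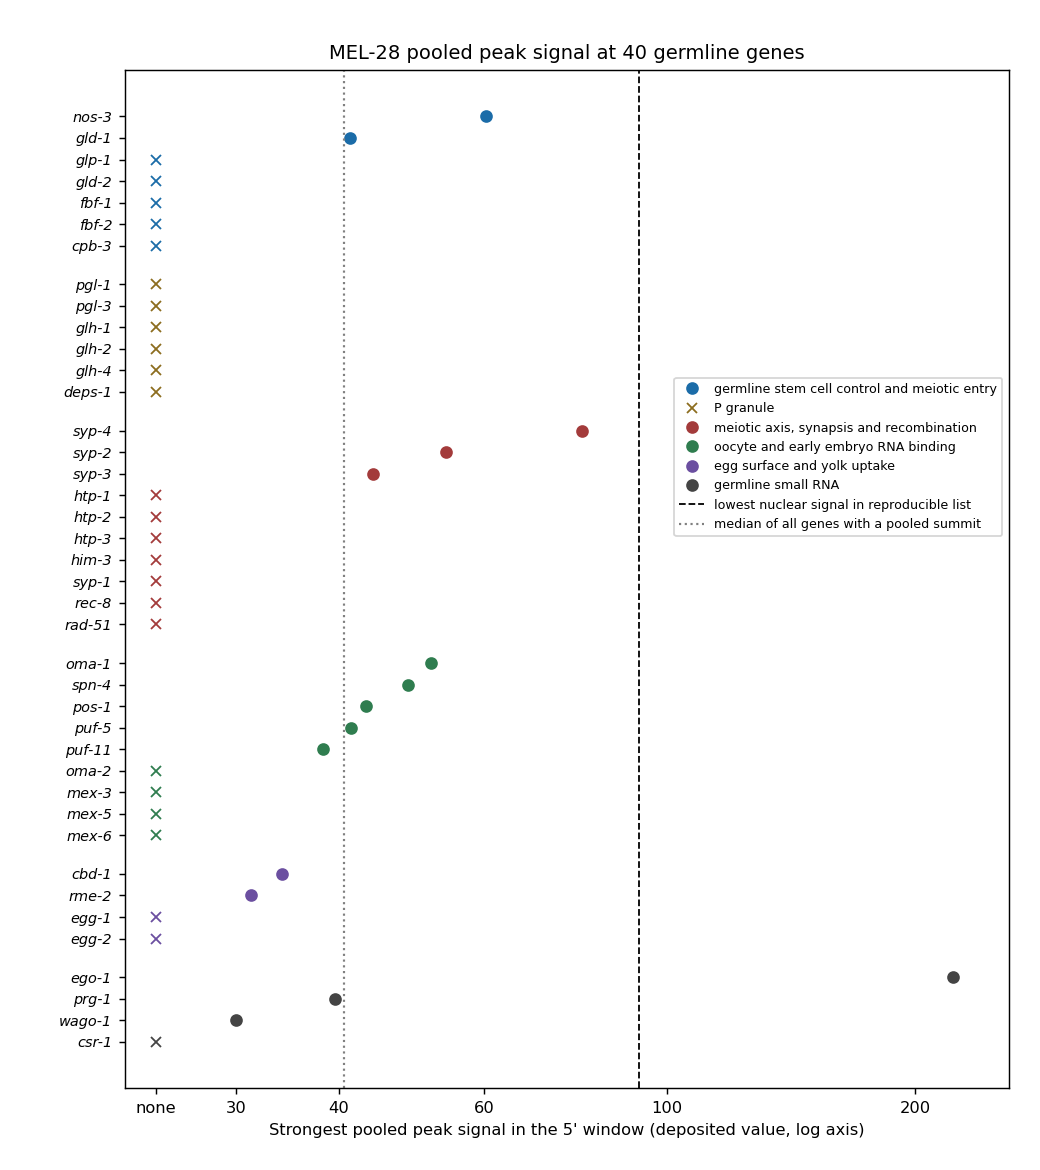
Strongest pooled peak signal (horizontal log axis, deposited value) in the 5′ window of each of the 40 genes, in rows grouped and coloured by role, with crosses at the left for genes with no pooled summit and a dotted line at the median of all genes with one, 40.6. Only ego-1, at 223, lies right of the dashed line at 92.7, the lowest nuclear signal of the reproducible list, and the P granule genes all carry crosses.

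Among the 15 members with a pooled summit the median signal was 43.2, against 40.6 for all 5627 genes with one, and 10 of the 15 lay above that value. The highest of them, ego-1, was 2.82 times the next member and 5.90 times the nuclear median of the list. The other 14 ran from 30.1 to 78.8, all under the lowest reproducible peak. The deposited −log10 q-values had a median of 0.339 at members, against 0.253 over all genes with a summit, and reached the shared maximum of 2.05 at ego-1.

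Germline small RNA genes held both the strongest and the weakest of these peaks. EGO-1 is an RNA-dependent RNA polymerase that makes small RNAs in the germline. The ego-1 window, on chromosome I, held a pooled peak of signal 223 (chrI:7656632-7656907), which ranked 21 of 17005, with its summit 415 bp upstream of the 5′ end. In replicate 1 the strongest summit had signal 85.4 (4.79 times the list's median, rank 48) at 450 bp upstream. In replicate 2 it had signal 148 (5.99 times, rank 10) at 372 bp upstream. The replicates were alike in placing ego-1 among their 48 strongest nuclear peaks. A weaker pooled summit of signal 55.4 lay 616 bp upstream, and replicate 2 listed one of 52.2 at 571 bp upstream. The summit lay outside protein-coding genes, with ego-1 the nearest protein-coding 5′ end, and the piRNA gene 21ur-14981 lay within 500 bp.

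The Argonaute genes stood far below ego-1. The piRNA-binding Argonaute gene prg-1 had a pooled signal of 39.6 with the summit in its own coding exon, 419 bp downstream of the 5′ end, and signals of 18.8 in replicate 1 and 37.6 in replicate 2. For wago-1, which encodes an Argonaute of secondary small RNAs, the pooled signal was 30.1 (rank 15987) in a coding exon, with 18.7 in replicate 1 and no summit in replicate 2. At csr-1, whose Argonaute protein binds small RNAs against expressed germline genes, no list had a summit in the window, although 3 pooled summits lay further into the gene body. The gene rrf-1, the RNA-dependent RNA polymerase gene beside ego-1, had no summit in any list.

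A synaptonemal complex gene came next. SYP proteins form the central region that holds paired homologs together. At syp-4 the pooled signal was 78.8 (chrI:6846967-6847396, rank 657), with 34.1 in replicate 1 and 54.6 in replicate 2. The replicate summits lay 1 bp apart, at 249 and 248 bp upstream, and the signals were 1.91 and 2.21 times the median of their lists. The pooled summit, 329 bp upstream, was nearer to the 5′ end of H27M09.5, at 223 bp, and the snRNA gene H27M09.6 lay within 500 bp.

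At syp-2 the replicates differed in site and strength. The syp-2 pooled signal was 53.9 in its own 5′ UTR, 195 bp downstream of the 5′ end (chrV:5536467-5536896). Replicate 2 had signal 49.5 there (2.00 times its median, rank 697), whereas the only replicate 1 summit was a weak one of 16.3 at 571 bp upstream. The syp-3 pooled signal was 44.0, with 23.1 in replicate 1 and 24.5 in replicate 2, and the nearest 5′ end, at 51 bp, was that of F39H2.3. At syp-1, the gene of another central region protein, no list had a summit.

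None of the chromosome axis genes among the members had a pooled summit. The HORMA-domain genes him-3, htp-1 and htp-3 each had a summit in 1 replicate only: htp-1 with signal 13.7 in replicate 1, htp-3 with 20.5 and him-3 with 19.1 in replicate 2. All 3 values were under the median of their list. The him-3 summit lay in the gene body of pgl-1 and nearer to the pgl-1 5′ end. No list had a summit at htp-2 or at rec-8, which encodes a meiotic cohesin subunit. Among cohesin and cohesin loader genes of the wider germline list, coh-3 (39.3), coh-4 (51.3) and smc-3 (68.1) had a pooled summit. Each was nearer to another gene's 5′ end, and him-1 and scc-2 had no pooled summit. At the strand-exchange recombinase gene rad-51, both replicates had a summit (17.1 in replicate 1, 22.9 in replicate 2), the closest pair lay 283 bp apart, and the pooled list had none.

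Of the 6 P granule genes none had a pooled summit, against 28.2% of all genes. PGL-1, PGL-3 and the GLH helicases build the granules that sit over nuclear pores, and DEPS-1 is a further granule component. Among them glh-2 alone had a replicate summit in its window (signal 18.3 in replicate 1, 1.02 times the median, 97 bp upstream). The replicate 2 summit counted for him-3 (chrIV:6976817) lay inside the pgl-1 gene (chrIV:6974441-6977318), just past the downstream edge of the pgl-1 window. The nearest pooled summit lay between 1042 bp (pgl-3) and 3319 bp (glh-4) from the 5′ end. A pooled summit inside the gene body was found in 3 of the 6 (50%, against 32.1% of all genes), pgl-1, glh-1 and glh-2. Of 14 other genes listed for this role, 4 had a pooled summit in the window (28.6%), a share near that of all genes. They were pgl-2, meg-3, mut-2 and mut-14. That list was broad and held mutator genes, such as mut-2 and mut-14, whose proteins belong to granules beside P granules.

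Of the genes for stem cell control and meiotic entry, 2 of 7 had a pooled summit. For nos-3, which encodes a Nanos-related RNA regulator, the pooled signal was 60.3 (rank 1669), with 23.7 in replicate 1 and 36.1 in replicate 2. The replicate summits lay 62 bp apart in the divergent promoter printed above, and the pooled summit was 40 bp from the 5′ end of Y53C12B.1. For gld-1, which encodes a translational repressor needed for meiotic progression, the pooled signal was 41.3 at 315 bp upstream, with 17.7 in replicate 1 and none in replicate 2. At the CPEB-family gene cpb-3, replicate 1 alone had a summit (15.9). No list had a summit in the windows of glp-1, the Notch receptor gene, or gld-2, the poly(A) polymerase gene. The body of gld-2, 16447 bp long, held 7 pooled summits.

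Of the genes for RNA-binding proteins of oocytes and early embryos, 5 of 9 had a pooled summit. OMA-1 and OMA-2 are redundant zinc finger proteins of oocyte maturation, and the summits at oma-1 were tightly placed at 145 bp (replicate 1), 154 bp (replicate 2) and 147 bp (pooled) upstream. Their strengths were not alike: replicate 1 had signal 30.9 (1.73 times its median, rank 1683), replicate 2 had 19.5 (0.790 times, rank 18241), and the pooled value was 51.8. At spn-4, which encodes an RNA-binding protein of early blastomeres, the pooled signal was 48.5, with 28.8 in replicate 1 and 27.4 in replicate 2. This summit, 386 bp upstream, was nearer to the 5′ end of spe-39, at 162 bp.

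The remaining peaks of that group were close to the median of the list. The zinc finger gene pos-1 had a pooled signal of 43.2 at 346 bp upstream, nearer to the 5′ end of vha-18. Its strongest replicate 1 summit (16.7) lay 239 bp downstream and a weaker one (14.6) 450 bp upstream. Replicate 2 had no summit there. At puf-5 the pooled summit (41.3) lay in its coding exon, with 14.9 in replicate 1 and 21.9 in replicate 2. At puf-11 the pooled signal was 38.2, with 21.8 in replicate 1 and 24.7 in replicate 2, and the summits lay 174 bp upstream and 54 bp downstream of the 5′ end. None of mex-3, mex-5 and mex-6, which act in polarity and cell fate of the early embryo, had a summit in any list. For mex-5 the window reaches over the whole gap to the divergent gene rec-8, whose 5′ end is 530 bp away, so both genes lack a summit over the same stretch.

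Of the 4 genes for the egg surface and yolk uptake, 2 had pooled summits, both weak. The cbd-1 window held pooled summits of 34.1 at 776 bp upstream, nearer to sec-31, and of 30.2 at 18 bp upstream. Replicate 1 had 24.5 at 175 bp upstream and replicate 2 had 22.2 at 725 bp upstream, so the strongest summits of the replicates were at different sites. At rme-2, the yolk receptor gene, the pooled signal was 31.3, with 29.7 in replicate 2 and none in replicate 1. No list had a summit at egg-1 or egg-2, whose products act at the oocyte surface in fertilisation.

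**Figure D2:**
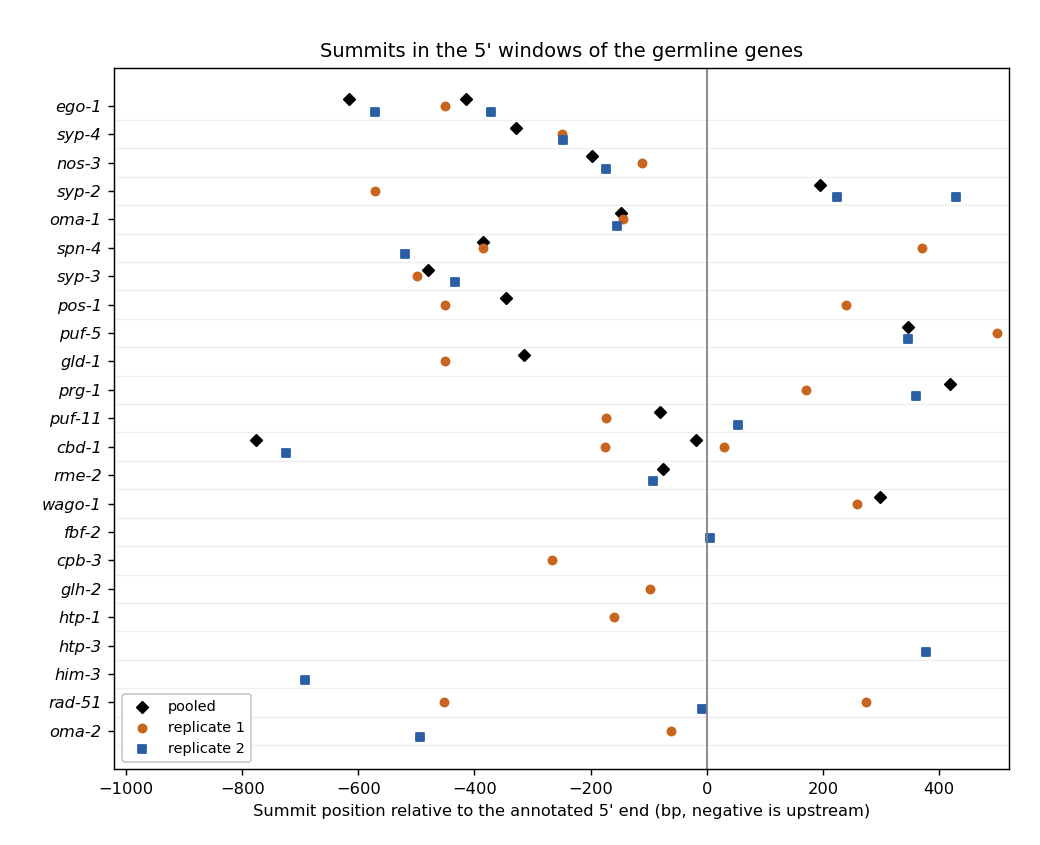
Every summit in the 5′ windows of the 23 genes that had one, by distance from the annotated 5′ end in bp (horizontal axis, negative values upstream), with black diamonds for the pooled list, orange circles for replicate 1 and blue squares for replicate 2. Summits of the replicates nearly coincide at syp-4 and oma-1 and lie far apart at syp-2, cbd-1 and oma-2.

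Most pooled summits were upstream, in a share near that of all genes. The pooled summit was upstream in 11 of 15 members (73.3%), against 70.6% of all genes with a summit, and the median position was 198 bp upstream in both sets. Of the 15 summits, 11 lay outside protein-coding genes, 3 in a coding exon and 1 in a 5′ UTR. For 6 members (syp-4, nos-3, spn-4, syp-3, pos-1 and cbd-1) another gene's 5′ end was nearer to the summit, and 8 summits also fell in another gene's window. A noncoding gene lay within 500 bp of 4 summits (ego-1, syp-4, puf-11 and wago-1). The counts of summit features, nearer 5′ ends, shared windows and noncoding genes were not made over all genes. They cannot be read as traits of the members.

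Replicate summits lay close together at a minority of these genes, as was so for all genes. Of the 15 members with a pooled summit, 11 had a summit in both replicates, 3 in replicate 1 only (gld-1, pos-1 and wago-1) and 1 in replicate 2 only (rme-2). Of the 25 without one, 2 had a summit in both replicates (rad-51 and oma-2), 3 in replicate 1 only (cpb-3, glh-2 and htp-1) and 3 in replicate 2 only (fbf-2, htp-3 and him-3). Summits of the 2 replicates lay within 150 bp of each other at 6 of 40 members (15%, against 10.7% of all genes): ego-1, syp-4, nos-3, oma-1, spn-4 and syp-3. Counted only over genes with a summit in both replicates, this was 6 of 13 members, against 2129 of 3608 such genes in the whole set. The difference was not tested.

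Across the 13 members with a summit in both lists, replicate signals gave a Pearson r of 0.711 (log2 values) and a Spearman rho of 0.280. Without ego-1 these were 0.104 and 0.0839 over 12 members, so the relation rests on that gene. Across all 3608 genes with both summits the values were 0.546 and 0.405. At 6 of the 13 members one replicate's value was above the median of its list and the other's below, a count not made over all genes. The strongest summits of the replicates need not mark the same site. They lay 796 bp apart at syp-2, 550 bp at cbd-1, 432 bp at oma-2 and 228 bp at puf-11. The points share the 2 libraries and 1 control and are not independent replicates.

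**Figure D3:**
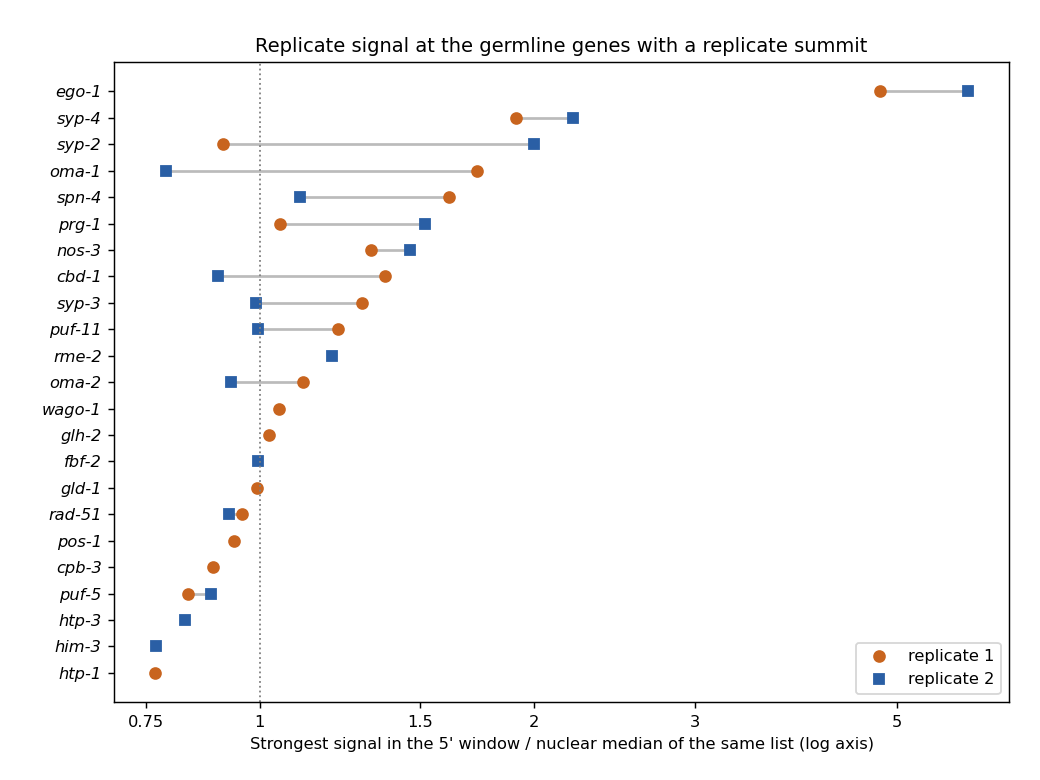
Strongest signal in the 5′ window divided by the nuclear median of the same list (horizontal log axis), with orange circles for replicate 1, blue squares for replicate 2 and a grey line joining both where both had a summit. The gene ego-1 stands apart at 4.79 and 5.99, and 6 of the 13 genes with both values (syp-2, syp-3, oma-1, oma-2, puf-11 and cbd-1) lie on opposite sides of the dotted line at 1.

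No paralog pair had a pooled summit at both genes. A pooled summit lay at only 28.2% of all genes and other pairs were not counted, so this is no result about paralogs. Of 7 pairs (fbf-1 and fbf-2, htp-1 and htp-2, oma-1 and oma-2, mex-5 and mex-6, egg-1 and egg-2, glh-1 and glh-2, pgl-1 and pgl-3), only oma-1 had a pooled summit. The gene oma-2 had summits of 19.9 in replicate 1 and 23.0 in replicate 2, which lay 432 bp apart. One partner had a summit in 1 replicate in the fbf, htp and glh pairs, and neither partner had one in any list in the mex, egg and pgl pairs. Long identical runs were present in the windows of fbf-1 and fbf-2 (longest 74 bp) and of htp-1 and htp-2 (95 bp), against 11 to 22 bp in the other pairs. How reads from such runs were placed is not given in the sources used here, so peaks at these 4 genes are uncertain.

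The identity of the fbf pair extends into their promoters. The 150 bp before the 5′ ends of fbf-1 (chrII:6080844-6080993) and fbf-2 (chrII:6091481-6091630) are printed on the gene's strand, with the longest run shared by these 2 stretches, 42 bases, in capitals. Replicate 2 had a summit of signal 24.6 at 6 bp downstream of the fbf-2 5′ end (0.997 times its median), and no list had one at fbf-1.
fbf-1: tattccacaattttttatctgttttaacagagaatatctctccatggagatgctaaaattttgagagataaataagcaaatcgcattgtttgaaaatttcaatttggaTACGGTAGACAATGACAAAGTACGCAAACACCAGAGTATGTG
fbf-2: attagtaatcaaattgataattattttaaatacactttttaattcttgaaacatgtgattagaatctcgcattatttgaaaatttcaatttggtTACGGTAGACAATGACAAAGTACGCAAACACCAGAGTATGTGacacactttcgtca

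Gene bodies were also scanned, because many pooled summits lay outside the 5′ windows. At least 1 pooled summit lay in the body of 21 of 40 members (52.5%, against 32.1% of all genes). Members were longer, with a median of 2610 bp against 2027 bp. Per length the members had 38 summits in 131 kb, or 0.290 per kb, against 0.170 per kb over all genes, and the other germline genes had 0.230 per kb. Of the 25 members without a pooled summit in the window, 11 had one in the gene body, a count not made over all genes. The median distance from the 5′ end to the nearest pooled summit was 1449 bp for members and 2187 bp for all genes.

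Base composition differed between members and all genes, and the members were spread unevenly over the chromosomes. The windows of members had a median GC content of 37.7%, against 35.2% for all genes, and over all genes those with a pooled summit had 36.2% and those without 34.8%. Within the members the values were 38.2% and 37.1%. A pooled summit was at 6 of 14 members on chromosome I, against 34.6% of all its genes, and at 2 of 5 on II, against 26.6%. It was at 0 of 3 on III, against 34.8%, at 4 of 12 on IV, against 28.0%, and at 3 of 6 on V, against 23.2%. No member lies on the X chromosome, where 26.1% of genes had one. Over all genes the share was highest on III and lowest on V. The members on each chromosome are too few to compare with that order. The part of composition and chromosome in the counts was not tested.

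**Figure D4:**
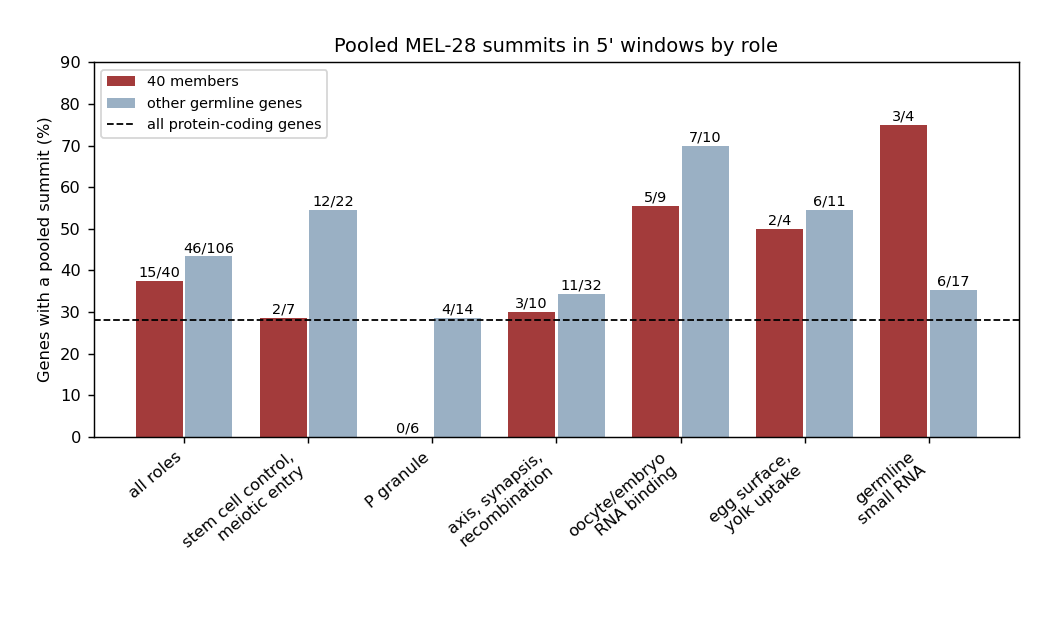
Share of genes with a pooled summit in the 5′ window (vertical axis, %), by role, with red bars for the 40 members and grey-blue bars for 106 other germline genes of the same roles, the counts above each bar, and a dashed line at the 28.2% of all protein-coding genes. The oocyte and embryo RNA-binding role stands at 5 of 9 and 7 of 10, and the P granule members at 0 of 6. The 10 include the transcription factor gene skn-1.

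A wider list of germline genes differed from the members in several shares. Of 108 further genes listed under the same roles, which were taken more broadly, 106 were in the annotation. A pooled summit lay in the windows of 46 of them (43.4%), with a median signal of 43.0, and a reproducible one in 4 (3.77%). The share with none in any list was 42.5% in members and 30.2% in the other genes, and that with a summit in exactly 1 replicate was 25% and 41.5%. By role, members had the larger pooled share for small RNA genes, with 3 of 4 (75%) against 6 of 17 (35.3%). They had the smaller share in the other 5 roles. It was 2 of 7 (28.6%) against 12 of 22 (54.5%) for stem cell control and meiotic entry, 0 of 6 against 4 of 14 (28.6%) for P granules, and 3 of 10 (30%) against 11 of 32 (34.4%) for meiosis. For RNA binding it was 5 of 9 (55.6%) against 7 of 10 (70%), and for the egg surface and yolk 2 of 4 (50%) against 6 of 11 (54.5%). The 10 listed for RNA binding included the transcription factor gene skn-1, which had a pooled summit (61.4). These differences were not tested. Stem cell control and meiotic entry, in the wider list, also held sex-determination genes such as fog-1 and fem-3. It held general RNA regulators too, such as atx-2, mog-4 and larp-1, all with reproducible summits. The shares by role thus compare sets that differ in kind.

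The 4 reproducible ones were at egg-5, atx-2, mog-4 and larp-1. The egg-5 window, at an egg-surface pseudophosphatase gene, held the peak of signal 367 at the spliced leader gene sls-2.4, 701 bp upstream. The peak at atx-2, the ataxin-2 gene, had a signal of 151 with the summit 66 bp upstream, and 81.2 in replicate 1 and 72.1 in replicate 2. At mog-4, a splicing helicase gene of the sperm to oocyte switch, the pooled signal was just under that of atx-2, at 228 bp upstream, with 94.5 in replicate 1 and 45.9 in replicate 2. At larp-1, an RNA-binding protein gene, it was 110 at 650 bp upstream, nearer to wip-1. Below these the highest was smc-3, a cohesin gene, with 68.1 and a summit nearer to gly-9.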

How the data were processed

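MEL-28 was profiled by ChIP-seq in 2 biological replicates, which the labels name as separate. The deposited files used were 4 peak lists on ce11 in narrowPeak layout. Per the deposited file manifests, each replicate list was made from that replicate's alignments and a shared control, not analysed here, the pooled list from those of both replicates, and the reproducible list from these 3 lists by IDR, the irreproducible discovery rate. Which aligner, caller and IDR threshold were used is not given in the sources used here. Both the signal and the −log10 q-value of a peak are the authors' deposited values, and read depth is unknown. The summit offset (a position, not a score) is deposited too. The 4 lists on ce10 were not used.

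Gene 5′ ends came from Ensembl release 115 (WBcel235, the ce11 assembly), and sequence from RefSeq for that assembly. A gene's value is its strongest summit in the window. The members and lists were chosen with earlier results of these data known, so counts are set beside those of all protein-coding genes, without a test. Named were members with a reproducible summit, the 10 with the highest pooled signal, those without one, those in 1 replicate only, the 7 paralog pairs, and of the other germline genes the 4 reproducible ones and the highest 5 by pooled signal. The remaining members were named as well, and further genes of the wider list where needed to describe it. Window assignment was tested on simulated data. Alternatives were other windows, transcript 5′ ends, interval overlap, nearest 5′ ends, stronger peaks and either replicate alone. Python 3.11.15, numpy 2.4.6 and pandas 2.3.3 were used.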

Additional observations from a re-analysis of the deposited data

How the results depend on the processing

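The count of members with a reproducible summit stayed at 1, ego-1, under all 8 alternatives, including the 369 strongest nuclear peaks of either replicate alone. The count with a pooled summit, 15 in the report, ran from 10 (own 5′ end nearest) to 19 (2000 bp before the 5′ end). With a replicate list limited to its 17005 strongest nuclear peaks, as many as the pooled list holds, it was 15 for replicate 2 alone and 17 for replicate 1 alone. In full, these lists gave 17 and 19 members, as in the report. The count with a summit in both replicates, 13 in the report, fell to 8 with 500 bp before and 250 bp after the 5′ end, to 8 where the gene's own 5′ end had to be nearest, and to 5 with peaks of at least the median signal of their list. These 3 settings admit fewer peaks by construction. Shares of all protein-coding genes are not given for any alternative. The counts therefore do not show whether the differences between members and all genes hold under them. The median signal of members, 43.2, stayed between 40.4 and 46.3 under the alternatives that kept the pooled list. From 1 such limited replicate list it was 24.7 without replicate 1 and 19.9 without replicate 2, each on that list's own scale. No paired analysis was possible because there is 1 group. The lists hold no read counts, so an absent summit says that no peak was listed, not that MEL-28 was absent.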
